A study of Rattus norvegicus with 10 samples.

Results

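Nuclear receptors are transcription factors that bind DNA and, in most cases, a small fat-soluble ligand, and they set the rates at which the liver handles foreign chemicals, bile acids, cholesterol, fatty acids and hormones. The genes described here are 42 nuclear receptor genes given by name, of which 39 had a probe set annotated to that gene alone, out of 14217 genes so measured. Nr2e3, Nr6a1 and Hnf4g had none and were not analysed here. The 39 genes held 68 such probe sets, and each gene was described by the one with the highest mean over all animals. That choice of probe set did not use the groups.

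The RNA came from the livers of 10 rats, all male and of the outbred Sprague-Dawley stock. Of these, 5 were exposed to waste water (effluent) of bulk drug makers and 5 were controls. Each rat gave 1 Affymetrix array, on which a probe set of short oligonucleotides near the 3′ end of a transcript gives its signal. The labels used here state neither the dose nor the length of exposure, nor the hour at which the livers were taken. Values are log2 signals, so that a difference of 1 is 2-fold.

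Many of these receptors act in pairs. The retinoid X receptors (Rxra, Rxrb, Rxrg) are the partners of the xenobiotic sensors PXR (Nr1i2) and CAR (Nr1i3), of the oxysterol receptors LXR-alpha and LXR-beta (Nr1h3, Nr1h2), of the bile acid receptor FXR (Nr1h4), of the fatty acid receptors PPAR (Ppara, Ppard, Pparg) and of the thyroid hormone, vitamin D and retinoic acid receptors. HNF4-alpha (Hnf4a) keeps the hepatocyte programme running, and steroid receptors such as the glucocorticoid receptor (Nr3c1) bind DNA as pairs of themselves. Drugs that activate PXR or CAR are known to induce cytochrome P450 genes in liver.

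Over all probe sets, array medians lay between 5.427 and 5.495, and correlations between arrays between 0.991 and 0.996. By these no array stood apart, but the deposited values were quantile-normalized, which by itself brings the medians together. The RNA quality ratio (signal of 3′ against 5′ control probes) was highest in control animal 5, at 0.735, with 0.494 to 0.626 in the other animals. All 6 hepatocyte markers were bright, with albumin (Alb) at 14.99, whereas 3 of 4 adrenal and 5 of 6 lymphocyte markers were dim. The 4 measured Kupffer cell markers (Clec4f, Cd163, Cd5l, Cd68) all had higher means in exposed animals, by 0.05 to 0.36, and none passed the test. The array means of that list ran from 8.435 to 9.506 in exposed and from 8.178 to 9.393 in control animals. Each of these markers was lowest in exposed animal 3 and in control animal 5 of its group. In whole liver, fewer cells of a type and less RNA per cell cannot be told apart.

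The receptors spanned a wide range of signal. A probe set was called dim if its mean was at or under 5.702, the 95th percentile of 40 probe sets for sensory receptor genes, and 53.9% of all probe sets lay there. By that limit 27 of the 39 receptors were above it and 12 were dim. The dim ones were Nr4a2, Nr4a3, Rarg, Esr1, Rorb, Nr0b1, Nr5a1, Nr2f1, Nr2c2, Vdr, Esr2 and Pgr, with means from 5.31 for Nr4a2 to 3.14 for Pgr, the progesterone receptor. Nr5a1 and Nr0b1, which act in steroid-making tissue, and Vdr, the vitamin D receptor, were among them. Dim means that the signal could not be told from that of genes with little part in liver, not that the transcript is absent.

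The highest signal was that of Hnf4a, at 12.18. Next came Nr1h4 at 10.08, Nr1h3 at 9.85, Nr3c1 at 9.83, Nr2f2 (COUP-TFII, an orphan receptor) at 9.51, Nr2f6 at 9.29, Rarb (retinoic acid receptor beta) at 9.22 and Thrb (thyroid hormone receptor beta) at 9.09; these 8 were the receptors above 9. By the probe set used, Hnf4a did not overlap with any other receptor in any animal, since its lowest value was 11.89 and the highest of Nr1h4 was 10.42. Its other probe sets averaged 9.04 and 8.58, under Nr1h4, so the top rank rests on the probe set used. Nr1h4, Nr1h3 and Nr3c1 overlapped across animals, as did Thrb, Nr1i2 at 8.88 and Nr5a2 at 8.88. A middle band ran from Rxrg at 8.11 through Nr1h2, Rxra, Nr1i3, Esrrg, Ppard, Rara, Rora, Nr2c1, Esrra and Thra to Nr3c2 at 6.32. Ppara at 5.96, Nr4a1 at 5.87, Esrrb at 5.86, Pparg at 5.78 and Rxrb at 5.76 sat just above the dim limit. Probe sets of different genes bind with different strength, so this is an order of signals and not of transcript numbers. Probe sets of the same gene can differ as well. The other Rxrg probe set was dim, at 4.57, and the others of Nr2f6 lay at 4.18 to 7.30.

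**Figure D1:**
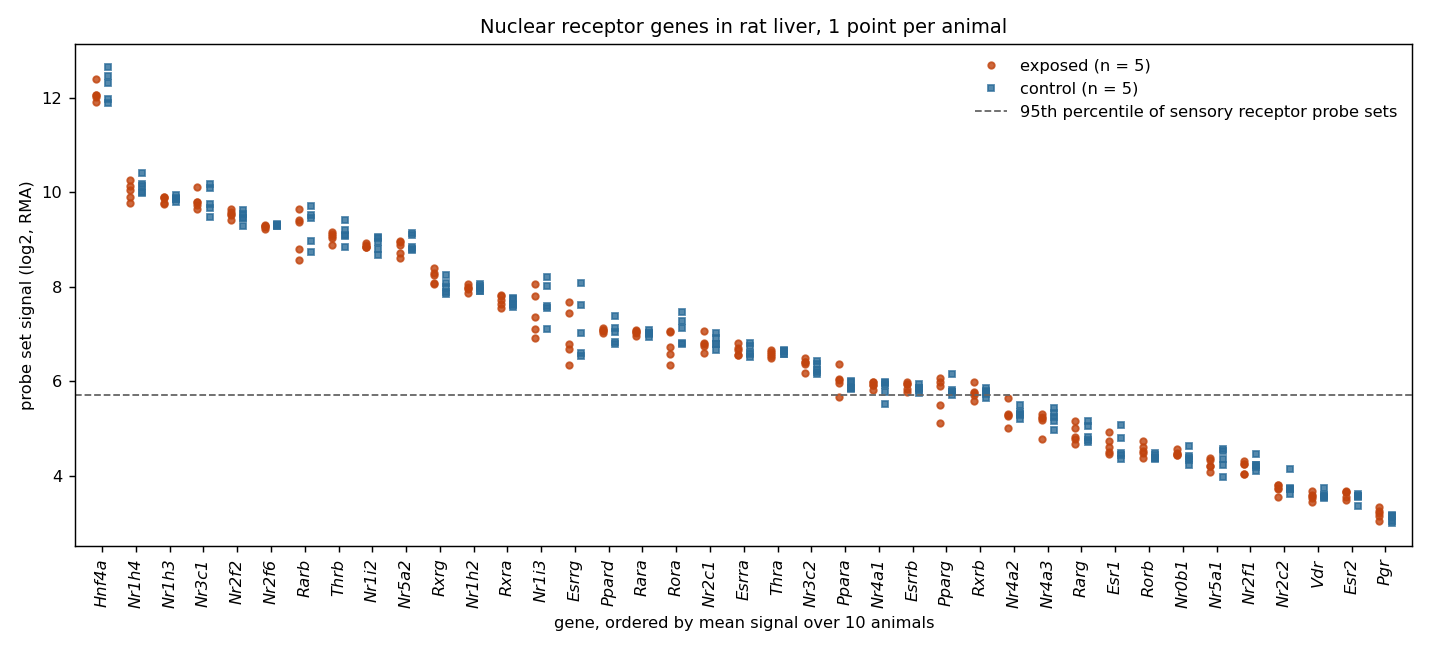
Signal of 39 nuclear receptor genes (log2, y axis) in each of 5 exposed (left of each pair, circles) and 5 control animals (squares), ordered by mean along the x axis; the dashed line is the dim limit of 5.702. By the probe set used for each gene, Hnf4a stands above all others and 12 genes lie under the line on average. The points of the groups overlap for every gene.

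The main question of the design is whether exposure altered these levels. By limma with Benjamini-Hochberg adjustment over 31042 probe sets, none of the 39 receptors differed between exposed and control animals at an adjusted p of 0.05, and no probe set on the array did (0.0%). Adjusted p-values of the receptors lay between 0.8789 and 0.9988. At an unadjusted p under 0.05 there were 2 of 39 (5.13%), Rxrg and Rora, against 5.46% of all probe sets. In no receptor were the groups without overlap, against 0.892% of all probe sets. Means were higher in exposed animals for 15 receptors and lower for 24, with a median difference of -0.02, beside 52.0% higher and a median of 0.0044 over all probe sets.

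The intervals limit how large a difference the data leave room for. The 95% interval of the difference lay within 2-fold either way for all 39 receptors. It lay within 1.5-fold for 35 of them (89.7%, against 97.3% of all probe sets). The 4 with wider intervals were Esrrg, Nr1i3, Rora and Rarb. Where no gene passes, the number of animals sets the limit, and a p that misses the threshold does not show equal levels.

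**Figure D2:**
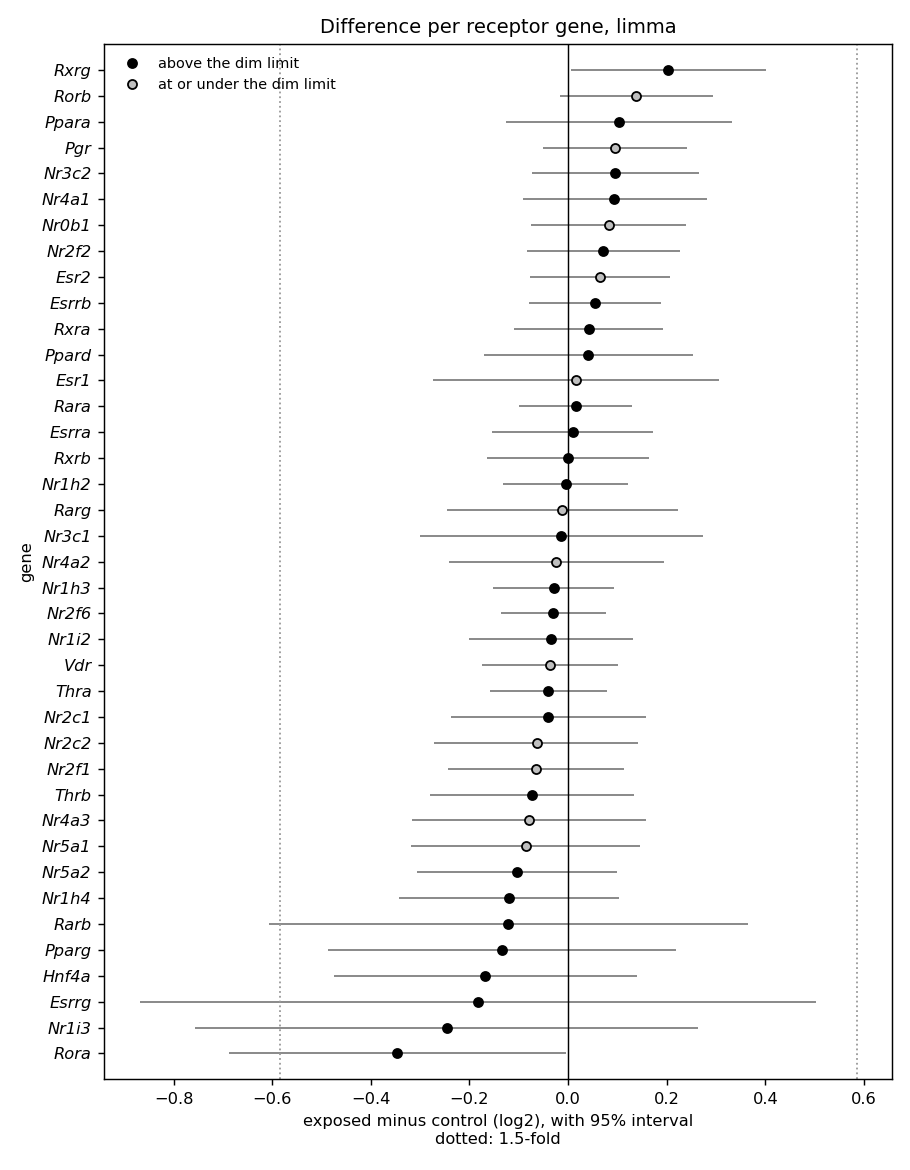
Exposed minus control difference (log2, x axis) with its 95% interval for 39 receptor genes, sorted from highest to lowest; filled points are above the dim limit, grey points at or under it, and dotted lines mark 1.5-fold. Only the intervals of Rxrg and Rora leave out 0, both with adjusted p of 0.879, and Esrrg, Nr1i3 and Rarb have the widest intervals.

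The xenobiotic sensors differed in how much they varied. PXR (Nr1i2), which many drugs activate directly, had signals of 8.85, 8.83, 8.93, 8.87 and 8.84 in exposed animals 1 to 5, against 8.80, 8.66, 9.03, 9.05 and 8.95 in control animals 1 to 5. The exposed animals lay close together inside the range of the controls, and the difference was -0.03 ± 0.08 (SE), with an interval of -0.20 to 0.13 (limma adjusted p = 0.967). CAR (Nr1i3), which senses phenobarbital-like drugs and bile pigments, had signals of 7.37, 8.05, 7.10, 7.81 and 6.91 in exposed animals 1 to 5, against 7.59, 7.10, 8.02, 7.55 and 8.20 in control animals 1 to 5. Both groups held low and high animals and overlapped broadly. CAR averaged 7.45 ± 0.48 in exposed and 7.69 ± 0.44 in control animals (SD, n = 5 each). Its difference was -0.25 ± 0.24 (SE), with an interval of -0.76 to 0.26 (limma adjusted p = 0.923). It lay between -0.40 and -0.11 when single animals were left out, and was -0.11 without exposed animal 5 and -0.12 without control animal 5.

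Of 23 genes listed as CAR and PXR targets, 18 were measured, and none passed the test. Of these 18, 10 had higher and 8 lower means in exposed animals, with a median of 0.03. Those with the smallest p were Cyp3a23-3a1, a drug-metabolising P450 (-0.21 ± 0.12), the steroid hydroxylase Cyp2a1 (0.37 ± 0.24) and Cyp3a9 (-0.53 ± 0.37; SE for each). Cyp2b1 and Cyp2b2, the classical CAR targets of rat liver, had no single-gene probe set and were not analysed here.

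Among the lipid sensors, the LXR genes were steady. Nr1h3, which in liver turns on bile acid, sterol export and fatty acid synthesis genes, had signals of 9.90, 9.90, 9.77, 9.87 and 9.76 in exposed animals 1 to 5, against 9.86, 9.86, 9.89, 9.80 and 9.94 in control animals 1 to 5. All 10 animals lay within 0.18 of each other, and the difference was -0.03 ± 0.06 (SE) with an interval of -0.15 to 0.09. Nr1h2, the widely expressed LXR, had signals of 8.06, 7.998, 7.95, 7.97 and 7.86 in exposed animals 1 to 5, against 8.06, 7.97, 8.01, 7.90 and 7.92 in control animals 1 to 5. It was as even, with a difference of -0.01 ± 0.06 (SE) and an interval of -0.13 to 0.12. Of 14 listed LXR targets 13 were measured, 6 with higher and 7 with lower means and a median of -0.003; fatty acid synthase (Fasn) had 0.31 ± 0.16, its regulator Srebf1 0.24 ± 0.16 and stearoyl-CoA desaturase (Scd) 0.28 ± 0.21 (SE), and none passed the test.

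FXR (Nr1h4), which senses bile acids and restrains their synthesis, had signals of 9.90, 9.78, 10.14, 10.25 and 10.04 in exposed animals 1 to 5, against 9.999, 9.99, 10.13, 10.42 and 10.17 in control animals 1 to 5. Animals 1 and 2 of each group were the lowest of their group, and the groups overlapped. The difference was -0.12 ± 0.10 (SE), with an interval of -0.34 to 0.10 (limma adjusted p = 0.913). It was -0.05 without control animal 4 and -0.06 without exposed animal 2. Of 12 listed FXR targets 11 were measured, 5 with higher and 6 with lower means and a median of -0.01, and none passed the test. The bile acid-activating enzyme Slc27a5 had -0.23 ± 0.12, the transporter subunit Slc51a 0.07 ± 0.08 and the conjugating enzyme Baat -0.04 ± 0.05 (SE).

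PPAR-alpha (Ppara), the receptor through which fatty acids and fibrates raise fat oxidation in rodent liver, had signals of 6.04, 5.66, 5.95, 6.37 and 6.02 in exposed animals 1 to 5, against 5.86, 5.85, 6.0, 5.99 and 5.83 in control animals 1 to 5. Exposed animal 4 was the highest and exposed animal 2 the lowest of all 10, with the controls between them. The exposed SD was 0.25 against 0.08 in controls, and the difference was 0.10 ± 0.11 (SE) with an interval of -0.13 to 0.33 (limma adjusted p = 0.928). Leaving out exposed animal 4 gave 0.01, and leaving out exposed animal 2 gave 0.19. Of 21 listed PPAR-alpha targets 17 were measured, and none passed the test. Means were higher in exposed animals for 3 and lower for 14, with a median of -0.06, beside 52.0% higher over all probe sets. Control animal 5 had the highest signal of all 10 for most of these genes, such as Cyp4a3 (12.07), Cpt1a (12.28) and Vnn1 (9.40). It did not for Fabp1, Acot1 and Fgf21. How far the lower means rest on that animal was not tested. The mitochondrial transferase Cpt2 had -0.16 ± 0.14, the pantetheinase Vnn1 -0.23 ± 0.22 and the fatty acid dehydrogenase Acadm -0.06 ± 0.07 (SE).

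The remaining PPARs also differed in spread between the groups. Ppard, found in most tissues, had signals of 7.02, 7.06, 7.09, 7.13 and 7.08 in exposed animals 1 to 5, against 7.37, 7.13, 6.83, 7.05 and 6.79 in control animals 1 to 5. The exposed animals lay within a narrow band inside the wider control range, and the difference was 0.04 ± 0.10 (SE) with an interval of -0.17 to 0.25. Leaving out control animal 1 gave 0.13, and leaving out control animal 5 gave -0.02. Pparg, the fat cell receptor, had signals of 5.89, 5.98, 5.12, 6.07 and 5.49 in exposed animals 1 to 5, against 5.71, 5.78, 5.77, 5.80 and 6.16 in control animals 1 to 5. Exposed animals 3 and 5 were the lowest and control animal 5 the highest. The difference was -0.14 ± 0.16 (SE), with an interval of -0.49 to 0.22; leaving out exposed animal 3 gave 0.01 and leaving out exposed animal 4 gave -0.23.

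Of the liver-enriched receptors, Hnf4a had 12.06, 11.92, 12.40, 12.07 and 12.02 in exposed animals 1 to 5, against 11.89, 12.32, 11.97, 12.66 and 12.46 in control animals 1 to 5. The highest animal was control 4 and the lowest control 1, so the control range enclosed the exposed one. The difference was -0.17 ± 0.14 (SE), with an interval of -0.47 to 0.14 (limma adjusted p = 0.912), and leaving out control animal 4 gave -0.07, leaving out control animal 1 -0.26. Of 11 listed genes of secreted proteins and other hepatocyte products under HNF4-alpha, 8 were measured, 4 with higher and 4 with lower means and a median of 0.002; apolipoprotein B (Apob) had -0.14 ± 0.09, the urea cycle enzyme Otc 0.08 ± 0.07 and Apoa4 0.06 ± 0.07 (SE), and none passed the test.

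Nr5a2 (LRH-1), which drives bile acid synthesis genes, had signals of 8.89, 8.96, 8.95, 8.62 and 8.71 in exposed animals 1 to 5, against 8.81, 9.13, 9.09, 8.79 and 8.83 in control animals 1 to 5. Animals 4 of both groups were the lowest of their groups, and the difference was -0.10 ± 0.09 (SE) with an interval of -0.31 to 0.10. It was -0.05 without exposed animal 4 or without control animal 2, and -0.06 without control animal 3. Rxra, the main retinoid X receptor of hepatocytes, had signals of 7.72, 7.82, 7.80, 7.54 and 7.63 in exposed animals 1 to 5, against 7.73, 7.77, 7.62, 7.57 and 7.63 in control animals 1 to 5. The groups overlapped almost fully, and the difference was 0.04 ± 0.07 (SE) with an interval of -0.11 to 0.19. Leaving out single animals gave 0.01 (exposed 2) to 0.08 (exposed 4).

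Rxrg and Rora had the smallest p of all receptors. Rxrg, the third retinoid X receptor, had signals of 8.07, 8.25, 8.06, 8.29 and 8.40 in exposed animals 1 to 5, against 7.90, 7.84, 8.08, 7.99 and 8.25 in control animals 1 to 5. Exposed animal 5 was the highest and control animals 1 and 2 the lowest, with overlap between. It averaged 8.22 ± 0.15 in exposed and 8.01 ± 0.17 in control animals (SD, n = 5 each). The difference was 0.20 ± 0.09 (SE), with an interval of 0.01 to 0.40 and an unadjusted p of 0.0456 (limma adjusted p = 0.879). A second Rxrg probe set, lower by 3.54 and dim, gave 0.03, and the mean of both gave 0.12. With the Bmal1 level as a covariate, a model added after the values were seen, it was 0.10.

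Rora, a receptor that activates the clock gene Bmal1 and lipid genes, had signals of 7.04, 7.06, 6.71, 6.35 and 6.58 in exposed animals 1 to 5, against 7.13, 7.46, 7.27, 6.80 and 6.79 in control animals 1 to 5. The 3 highest values were those of control animals 1 to 3 and the 3 lowest those of exposed animals 3 to 5, with the rest overlapping. It averaged 6.75 ± 0.30 in exposed and 7.09 ± 0.29 in control animals (SD, n = 5 each). The difference was -0.35 ± 0.16 (SE), with an interval of -0.69 to -0.01 and an unadjusted p of 0.0473 (limma adjusted p = 0.879). The second, dim probe set of Rora gave 0.05, the mean of both -0.15, and the model with the Bmal1 covariate -0.13.

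The next 3 by p were Rorb, Pgr and Nr3c2. Rorb, a receptor of retina and brain, was dim, with 4.36, 4.61, 4.52, 4.74 and 4.48 in exposed animals 1 to 5, against 4.48, 4.37, 4.38, 4.36 and 4.42 in control animals 1 to 5, and differed by 0.14 ± 0.07 (SE). Pgr was dim as well, with 3.25, 3.33, 3.20, 3.15 and 3.03 in exposed animals 1 to 5, against 3.14, 3.14, 3.04, 2.99 and 3.17 in control animals 1 to 5, and differed by 0.10 ± 0.07 (SE). Signals at that level are near the lower end of the array, and differences there are of little use. Nr3c2, the mineralocorticoid receptor, had 6.36, 6.16, 6.50, 6.41 and 6.41 in exposed animals 1 to 5, against 6.18, 6.14, 6.24, 6.37 and 6.42 in control animals 1 to 5. It overlapped between groups and differed by 0.10 ± 0.08 (SE) (limma adjusted p = 0.909). Leaving out single animals gave 0.06 to 0.15, with 0.06 without exposed animal 3 or control animal 2 and 0.15 without exposed animal 2; Rorb was at 0.09 without exposed animal 4 and Pgr at 0.06 without exposed animal 2.

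Among the steroid and thyroid hormone receptors, Nr3c1 averaged 9.82 ± 0.18 in exposed and 9.83 ± 0.30 in control animals (SD, n = 5 each) and differed by -0.01 ± 0.13 (SE). A second Nr3c1 probe set, lower by 3.30 but above the dim limit, gave -0.21 ± 0.10 (SE, unadjusted p = 0.0535, limma adjusted p = 0.879). Of 14 listed glucocorticoid receptor targets 11 were measured, 6 with higher and 5 with lower means and a median of 0.07. The receptor chaperone Fkbp5 had -0.25 ± 0.10 (unadjusted p = 0.0335, limma adjusted p = 0.879), the phosphatase Dusp1 0.52 ± 0.26 and the glucocorticoid-induced leucine zipper Tsc22d3 -0.21 ± 0.14 (SE). Thrb averaged 9.05 ± 0.11 in exposed and 9.12 ± 0.21 in control animals (SD, n = 5 each) and differed by -0.07 ± 0.10 (SE), and Thra (thyroid hormone receptor alpha) differed by -0.04 ± 0.06 (SE). All 5 listed thyroid hormone targets were measured, 3 with higher and 2 with lower means and a median of 0.07; the deiodinase Dio1, which makes active thyroid hormone, had -0.26 ± 0.10 (unadjusted p = 0.0239, limma adjusted p = 0.879), the lipogenic gene Thrsp 0.25 ± 0.17 and Gpd2 -0.15 ± 0.17 (SE).

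Of the retinoid receptors not given by animal, Rara differed by 0.02 ± 0.05 (SE) and dim Rarg by -0.01 ± 0.11 (SE), and Rxrb by -0.001 ± 0.08 (SE). Of 6 listed retinoid targets 5 were measured, 3 with higher and 2 with lower means and a median of 0.01. The transglutaminase Tgm2 had -0.19 ± 0.08 (unadjusted p = 0.0287, limma adjusted p = 0.879), the acyltransferase Lrat, which stores retinol as esters, 0.06 ± 0.12 and the dim retinoic acid hydroxylase Cyp26a1 -0.04 ± 0.09 (SE).

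The orphan receptors filled the rest of the range. Nr2f2 differed by 0.07 ± 0.07 (SE), Nr2f6 by -0.03 ± 0.05 (SE), Nr2c1 by -0.04 ± 0.09 (SE), and the oestrogen-related receptors Esrra and Esrrb by 0.01 ± 0.08 (SE) and 0.05 ± 0.06 (SE). Nr4a1, an immediate-early gene of the NR4A group, differed by 0.09 ± 0.09 (SE). The dim receptors not yet given, which were Nr4a2, Nr4a3, Esr1, Nr0b1, Nr5a1, Nr2f1, Nr2c2, Vdr and Esr2, differed by -0.09 (Nr5a1) to 0.08 (Nr0b1).

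Further parts of the pathway gave no called gene either. Of 18 listed coactivators and corepressors 15 were measured, 6 with higher and 9 with lower means and a median of -0.03; the corepressor Nrip1 had -0.24 ± 0.12, the coactivator partner Cited2 0.32 ± 0.19 and Ppargc1a, the dim coactivator PGC-1-alpha, 0.16 ± 0.10 (SE). Of 10 listed genes of hormone and oxysterol metabolism 7 were measured, 2 with higher and 5 with lower means and a median of -0.14. Apart from Dio1, given above, the retinol dehydrogenase Rdh16 had -0.24 ± 0.17 and the sterol hydroxylase Cyp27a1 -0.14 ± 0.11 (SE). Of 6 further receptor genes 3 were measured, and all had higher means in exposed animals with a median of 0.31. They were the clock repressors Nr1d1, at 0.43 ± 0.34, and Nr1d2, at 0.26 ± 0.27, and the FXR target SHP (Nr0b2), at 0.31 ± 0.41 (SE). In all 11 lists, which share a few genes, 109 of 135 genes were measured, and 0 passed by limma. An unadjusted p under 0.05 was found for 3 (2.75%), beside 5.46% of all probe sets. They were Dio1, Tgm2 and Fkbp5, all lower in exposed animals.

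Some receptors varied widely between animals of 1 group. The median SD within groups was 0.154 for the 39 receptors and 0.128 for all probe sets, and 17 receptors lay under the latter. There were 5 receptors that exceeded the 95th percentile of all probe sets: Esrrg at 0.62, Nr1i3 at 0.46, Rarb at 0.43, Pparg at 0.31 and Rora at 0.30. The lowest were Nr2f6 at 0.03, Rara at 0.05, Thra at 0.06 and Nr1h3 at 0.06. The span over all 10 animals was 3.37-fold for Esrrg and 2.46-fold for Nr1i3, against 1.07-fold for Nr2f6. The low values of Nr2f6 are those of the probe set used. Its other probe set above the dim limit had an SD of 0.11 and a span of 1.28-fold.

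Esrrg, the oestrogen-related receptor gamma of oxidative tissue, had signals of 6.34, 6.68, 6.79, 7.69 and 7.44 in exposed animals 1 to 5, against 7.02, 6.59, 6.53, 7.62 and 8.09 in control animals 1 to 5. Animals 4 and 5 were the highest in both groups. It averaged 6.99 ± 0.56 in exposed and 7.17 ± 0.67 in control animals (SD, n = 5 each), and differed by -0.18 ± 0.32 (SE) with an interval of -0.87 to 0.50 (limma adjusted p = 0.957); it was 0.05 without control animal 5, -0.02 without exposed animal 1, -0.36 without exposed animal 4 and -0.66 with the Bmal1 covariate given further on. A second Esrrg probe set, above the dim limit, had 5.22, 5.32, 5.97, 6.66 and 6.38 in exposed animals 1 to 5, against 6.10, 5.44, 5.74, 6.60 and 6.88 in control animals 1 to 5. It ordered the animals much alike, with animals 4 and 5 again highest in both groups.

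Rarb, which retinoic acid itself is known to induce, had signals of 9.65, 9.41, 9.37, 8.57 and 8.79 in exposed animals 1 to 5, against 9.45, 9.71, 9.52, 8.98 and 8.73 in control animals 1 to 5. Here animals 4 and 5 were the lowest in both groups. It averaged 9.16 ± 0.46 in exposed and 9.28 ± 0.41 in control animals (SD, n = 5 each), and differed by -0.12 ± 0.22 (SE) with an interval of -0.61 to 0.37 (limma adjusted p = 0.961). It was 0.03 without exposed animal 4 and -0.26 without control animal 5. Rora, given above, was also lowest in animals 4 and 5 of each group. The numbers are not known to tie animals of the groups together.

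The clock gene Bmal1, a transcription factor of the daily rhythm that RORs activate and the REV-ERBs (Nr1d1, Nr1d2) repress, varied between animals as well. Its signals were 7.49, 7.60, 7.08, 6.68 and 6.07 in exposed animals 1 to 5, against 8.08, 7.86, 7.73, 7.11 and 6.83 in control animals 1 to 5. They ran lower in animals 4 and 5 of each group, and the groups differed by -0.53 ± 0.30 (SE) with an interval of -1.18 to 0.11 (limma adjusted p = 0.88). Because of this spread, a model of group plus Bmal1 level was fitted after the values were seen. Its slope gives the receptor's log2 signal per unit of Bmal1 log2 signal.

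No receptor passed the adjusted threshold for the slope (smallest limma adjusted p = 0.0919, Rarb), against 0.103% of the other probe sets (32 of 31041). That background count was 4 without control animal 5 and 70 without exposed animal 5, and it moved by more than 1.5-fold whichever of the 10 animals was left out. At an unadjusted p under 0.05 there were 10 of 39 receptors (25.6%), 3 with a positive and 7 with a negative slope, against 9.18% of all probe sets. Among genes above the dim limit there were 9 of 27 (33.3%), against 11.9% of probe sets above it.

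The steepest slopes were those of Rarb, at 0.65 ± 0.12 (limma adjusted p = 0.0919), Esrrg, at -0.89 ± 0.18 (0.116), and Rora, at 0.42 ± 0.10 (0.198; SE for each). They had the same sign in each group alone, at 0.60 in exposed and 0.71 in control animals for Rarb, -0.74 and -1.11 for Esrrg (-0.87 and -0.93 for its second probe set), and 0.39 and 0.46 for Rora. With the replicate number added as a block, the slope rests on differences between same-numbered animals. All 3 then turned sign, to -0.87 for Rarb, 1.21 for Esrrg and -0.30 for Rora. Each had a limma adjusted p of 0.9998, and 0 probe sets were called. The fitted sign of these slopes thus depends on the model. The block slopes did not pass and are given without an SE, so they do not settle the direction. The labels do not say whether the numbers tie animals together. At an unadjusted p under 0.05 the block model had 3 of 39 receptors (7.69%), against 4.11% of all probe sets. Smaller slopes at an unadjusted p under 0.05 were those of Esrra at -0.18, Thrb at -0.22, Rxrg at -0.19, Nr1h4 at -0.21, Nr3c2 at -0.16, Nr3c1 at -0.25 and dim Rarg at 0.22. CAR, whose SD within groups was close to that of Rarb, had a slope of 0.08 ± 0.23 (SE), with 0.43 in exposed and -0.43 in control animals.

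With the Bmal1 level held in the model, no receptor differed between exposed and control animals at the adjusted threshold of limma. An unadjusted p under 0.05 was found for 4 of 39 (10.3%), against 5.85% of all probe sets. Bmal1 itself had a lower mean in exposed animals (-0.53, interval -1.18 to 0.11). The model therefore cannot fully separate a difference with exposure from one with Bmal1. Several log2 differences changed in size by a factor of over 1.5, which is not a 1.5-fold change of signal. Esrrg was at -0.66, Hnf4a at -0.28, Nr1h4 at -0.23 and Nr1i2 at -0.07, further below 0 than without it. Pgr was at 0.15, Rxra at 0.11 and Ppard at 0.10, further above 0. Nearer to 0 were Rora at -0.13, Rxrg at 0.10, Ppara at 0.04, Nr5a2 at -0.01, Nr1h3 at -0.01 and Nr3c2 at 0.01, and the signs of Rarb (0.22) and Nr1h2 (0.05) turned.

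Slopes on Bmal1 of other genes stand beside those of the receptors. The clock output gene Dbp had a slope of -2.15 (limma adjusted p = 0.00458). Immediate-early genes, which respond to handling, had slopes of 0.71 for Ier2, 1.53 for Egr1 and 0.35 for Ier3 (limma adjusted p = 0.136, 0.459 and 0.338), so none passed. They were the 3 with an unadjusted p under 0.05 among 8 measured of 9 listed, of which 3 are dim. The 8 measured ran, as array means, from 6.834 to 7.466 in exposed and from 6.639 to 7.573 in control animals. At an unadjusted p under 0.05 were also 8 of the 11 measured glucocorticoid targets, none of which is dim. The background was 9.18% of all probe sets and 11.9% of those above the dim limit. Of those 8 slopes 3 were positive and 5 negative, and none passed the adjusted threshold. The FXR list had 0 of 11, the HNF4A list 0 of 8, the PPAR-alpha list 3 of 17, the LXR list 1 of 13, the CAR and PXR list 4 of 18 and the coregulators 5 of 15. The part of sampling hour, handling or stress hormone in these slopes was not tested.

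**Figure D3:**
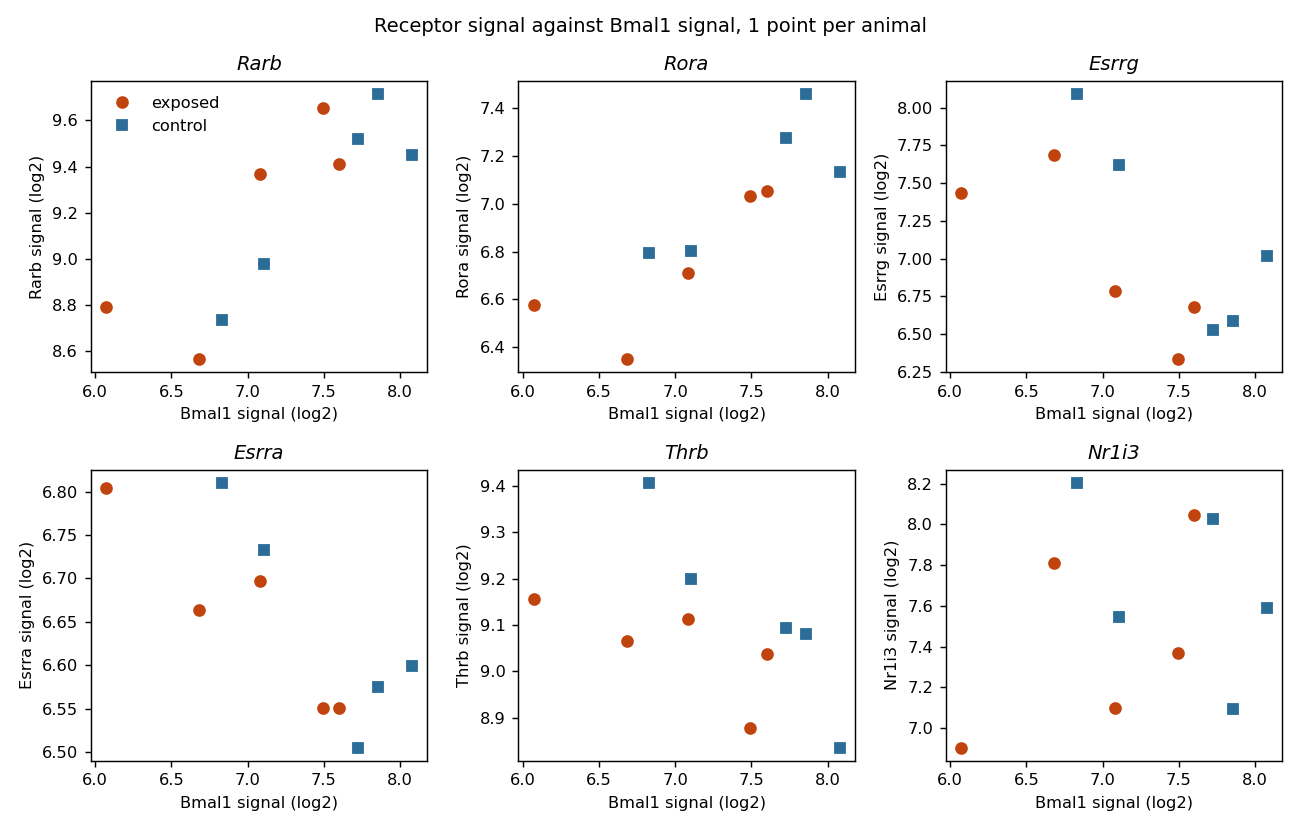
Receptor signal (log2, y axes) against Bmal1 signal (log2, x axes) in 5 exposed (circles) and 5 control animals (squares), 1 panel per receptor. Rarb and Rora run upwards with Bmal1 and Esrrg, Esrra and Thrb downwards in both groups, none passing the adjusted threshold, while Nr1i3 shows no common slope. With the replicate number as a block, the slopes of Rarb (-0.87), Rora (-0.30) and Esrrg (1.21) have the opposite sign, each with a limma adjusted p of 0.9998.

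The start regions of the 3 receptors with the steepest slopes, and of Nr5a2 as a member that holds the receptor half-site, are shown because RORs, oestrogen-related receptors and REV-ERBs share a half-site and retinoic acid receptors a repeated element. RefSeq sequences (GRCr8) from 250 bases before to 50 after the gene start were found for 36 of the 42 genes. Capitals mark the motifs searched on both strands, which were the half-site AGGTCA, the E-box CACGTG bound by Bmal1 and its partner, the D-box TTATGTAA or TTACGTAA bound by Dbp, and the retinoic acid element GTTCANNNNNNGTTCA, a form known from Rarb itself.
Rarb, chr15:11336142-11336441, plus strand: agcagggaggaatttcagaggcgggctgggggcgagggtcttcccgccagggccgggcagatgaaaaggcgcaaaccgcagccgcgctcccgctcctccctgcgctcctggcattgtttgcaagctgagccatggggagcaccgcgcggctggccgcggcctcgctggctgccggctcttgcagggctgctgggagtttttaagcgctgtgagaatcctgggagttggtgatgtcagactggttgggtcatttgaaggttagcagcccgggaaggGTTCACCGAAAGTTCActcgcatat
Rora, chr8:78816005-78816304, plus strand: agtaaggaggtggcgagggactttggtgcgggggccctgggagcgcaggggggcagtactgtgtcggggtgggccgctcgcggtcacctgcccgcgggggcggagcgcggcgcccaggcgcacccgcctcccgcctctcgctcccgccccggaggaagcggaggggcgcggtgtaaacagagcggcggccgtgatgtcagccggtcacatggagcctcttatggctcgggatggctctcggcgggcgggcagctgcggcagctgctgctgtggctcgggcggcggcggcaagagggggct
Esrrg, chr13:101744485-101744784, plus strand: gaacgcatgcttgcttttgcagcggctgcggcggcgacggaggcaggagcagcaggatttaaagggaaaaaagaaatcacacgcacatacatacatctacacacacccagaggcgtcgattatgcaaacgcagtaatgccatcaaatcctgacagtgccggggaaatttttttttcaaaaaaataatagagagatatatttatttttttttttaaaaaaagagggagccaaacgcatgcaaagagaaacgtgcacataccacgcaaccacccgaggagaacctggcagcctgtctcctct
Nr5a2, chr13:50984889-50985188, minus strand: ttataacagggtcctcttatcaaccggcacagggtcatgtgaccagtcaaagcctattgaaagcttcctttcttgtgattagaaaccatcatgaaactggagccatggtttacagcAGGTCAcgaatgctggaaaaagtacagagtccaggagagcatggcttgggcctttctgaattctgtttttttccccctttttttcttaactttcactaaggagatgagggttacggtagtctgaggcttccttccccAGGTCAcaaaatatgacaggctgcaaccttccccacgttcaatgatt

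Rarb was the only one of the 36 receptors with the retinoic acid element, at base 26 after its start, and 0.397% of 27457 promoters held it. Since the form searched was the one known from Rarb, its presence there was given in advance. The half-site was found in 2 of 36 receptors, Nr5a2 (at -134 and 4) and Nr0b1, against 15.7% of all promoters. The E-box was found in dim Esr2 and Nr5a1 (6.63% of all), and the D-box in 0 of 36 (1.01% of all). Rora and Esrrg held none of these in this window. A match of letters is a description and not a bound site, and the lack of one covers this window only.

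Probe sets of 1 gene could be set against each other for 18 of the 39 receptors. Besides the probe sets used there were 29 others, 0.31 to 5.26 lower in signal, of which 19 were dim. Their difference had the sign of the one used in 13 of 29, and in 7 of the 10 above the dim limit. None passed by limma and 2 of the 29 had an unadjusted p under 0.05, beside 5.46% of all probe sets. Both were dim probe sets of Nr2f6. The 2 further Hnf4a probe sets, at 9.04 and 8.58, gave -0.05 and -0.09. The 2 further Nr5a2 probe sets gave -0.075 and 0.01, and the second bright Thrb probe set -0.16. For Nr3c1 the second probe set gave -0.21, against -0.01 for the one used.

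A receptor's transcript level need not track its activity, so 11 receptors were set beside a textbook target across the 10 animals, with group means removed. The Hnf4a and Cyp7a1 pair alone passed, with Pearson's r = 0.82 (permutation p = 0.00348, adjusted over 11 pairs 0.0383) and Spearman's rho = 0.88 (permutation p = 0.00139, adjusted 0.0153). The shuffling ran over all 10 animals and did not allow for the group means removed. These p-values can therefore be too small, and neither the pass by Pearson's r nor that by Spearman's rho is firm. Cyp7a1, the hydroxylase that starts bile acid synthesis from cholesterol, had signals of 9.72, 7.34, 10.61, 8.95 and 10.04 in exposed animals 1 to 5, against 8.74, 10.13, 7.11, 10.82 and 10.80 in control animals 1 to 5. The animals low in Cyp7a1, exposed 2 and controls 1 and 3, were also the lowest in Hnf4a of their groups. Without the 2 animals farthest from the Hnf4a median, r was 0.87 (permutation p = 0.00657), but no pair then passed after adjustment (adjusted p = 0.0723). Nor did it with group means left in, where r was 0.79 (adjusted p = 0.0701).

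This relation rested on 1 of the 3 Hnf4a probe sets. The other probe sets, compared after the first result was seen, gave r = 0.36 (permutation p = 0.31) and r = 0.20 (permutation p = 0.583), with rho of 0.32 and 0.39 and r of -0.23 and -0.34 without the 2 farthest animals. Adjusted over the 4 relations added, those r had p of 0.62 and 0.767. The RNA quality ratio of the arrays (signal of 3′ against 5′ control probes, 0.494 to 0.735) had r = 0.47 with Hnf4a (permutation p = 0.166) and 0.10 with Cyp7a1 (permutation p = 0.767). The adjusted call was also lost when 7 of the 10 animals were left out singly, while r stayed between 0.79 and 0.86.

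The other 10 pairs had r from -0.40 to 0.47, with adjusted permutation p from 0.795 to 0.9998. PXR and Cyp3a23-3a1 had r = 0.14, PPAR-alpha and Cyp4a1 -0.24, LXR-alpha and the sterol exporter Abcg5 -0.03, FXR and SHP 0.47, and Nr5a2 and the bile acid hydroxylase Cyp8b1 0.00. Thrb and Thrsp had -0.05, Nr3c1 and Fkbp5 -0.26, Rarb and Cyp26a1 0.28, Rora and Nr1d1 -0.34, and Nr4a1 and Egr1 -0.40. Leaving out the 2 farthest animals gave -0.64 to 0.72 for these pairs. With 10 animals only strong relations can pass.

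**Figure D4:**
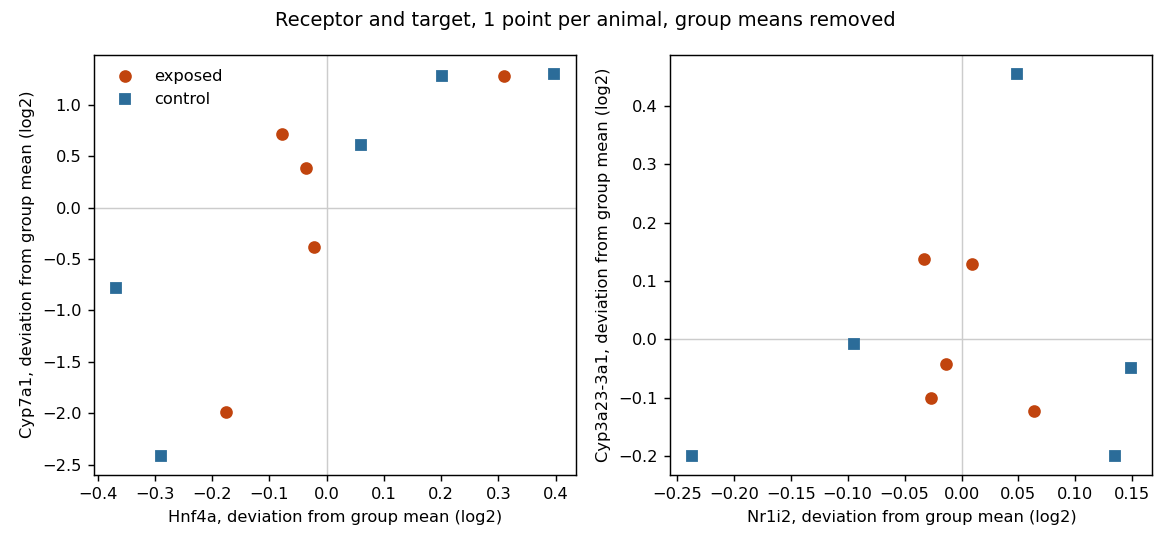
Deviation from the group mean (log2) of a receptor (x axis) and its target (y axis) in 5 exposed (circles) and 5 control animals (squares), for Hnf4a and Cyp7a1 on the left and Nr1i2 and Cyp3a23-3a1 on the right. The left points run upwards (r = 0.82) and the right ones show no trend (r = 0.14).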

How the data were processed

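Liver RNA of 5 exposed and 5 control rats was hybridised to 1 array each. The authors deposited log2 values per probe set made with RMA (background correction, quantile normalization and summary); the submitters' processing notes name R 2.8.1 and RMA, and the annotation of that time is not given in the sources used here. RMA pulls low values together and so shrinks differences of dim genes. The values (2.193 to 14.999) were used as deposited.

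Of 31099 probe sets, 57 Affymetrix controls were left out. By the platform annotation 20826 of the rest name 1 gene, 436 several and 9780 none; 20758 matched RefSeq by Entrez number, and 0 symbols changed. Groups were compared with limma 3.58.1 (R 4.3.3; lmFit, eBayes, two-sided, Benjamini-Hochberg over 31042 probe sets, 0.05), checked on simulated data. Receptor and target pairs used two-sided permutation tests (100000 resamples) on values with group means removed, after Python 3.11.15 and scipy 1.17.1. The shuffling ran over all 10 animals and not within groups. Of 12 pairs planned, 11 could be tested. Signal over background, rather than counts, and the number of arrays limit the precision.

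The members and gene lists were chosen with earlier results of these data known. Named were the xenobiotic, lipid and liver-enriched receptors, the 5 receptors of smallest p and the 5 of largest SD within groups, and up to 3 genes of smallest p per list. Alternatives tried were a filter on low values, array centring, quantile normalization, array weights, a trended robust prior, the mean of a gene's probe sets, a replicate block and leaving out each animal. The labels describe 10 rats, so p-values rest on the spread between animals. Over all probe sets, same-numbered animals of the groups did not deviate together (correlations -0.07 to 0.094), and the numbers were not used as pairs. That does not hold for each gene, since Bmal1, Rarb, Rora and Esrrg ran alike in animals 4 and 5 of both groups. A shared order or batch by number was not tested.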

Additional observations from a re-analysis of the deposited data

Results flagged for a closer look

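In 4 of 78 groups of 5 animals, 1 animal stood far from the other 4 of its group by Dixon's test at the 95% level. Chance flags about 1 in 20 groups, which is 3.9 of 78. Nr2c2, a dim orphan receptor, was at 4.137 in control animal 3, against 3.610 to 3.732 in the other controls. Nr4a3, also dim, was at 4.770 in exposed animal 1, against 5.179 to 5.313 in the other exposed animals. Pparg was at 6.160 in control animal 5, against 5.709 to 5.804 in the other controls. Esr2, dim, was at 3.354 in control animal 3, against 3.544 to 3.609 in the other controls.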

How the results depend on the processing

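No receptor passed under any of the alternatives run, by limma. Over all probe sets the count of calls was 0 to 1 when single animals were left out (1 without exposed animal 1) and 0 otherwise. The 18 receptors given by animal kept their sign in 308 of 322 alternatives; 7 of them changed sign in at least 1, all with an interval that includes 0. Those reversed by quantile normalization were Nr1i2 (0.009), Nr1h2 (0.034) and Nr1h3 (0.002), and by the Bmal1 covariate, added after seeing the data, Nr1h2 (0.051) and Rarb (0.222). Leaving out single animals gave -0.093 to 0.003 for Nr1i2, -0.028 to 0.022 for Nr1h2, -0.021 to 0.125 for Ppard, -0.225 to 0.012 for Pparg, -0.358 to 0.047 for Esrrg and -0.257 to 0.027 for Rarb. The cause was not tested.

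The slope on Bmal1, added after seeing the data, called 32 other probe sets; it called 12 without a group term, 18 with the RNA quality ratio as a covariate, 93 with Dbp in place of Bmal1 and 4 to 70 with single animals left out. It called 0 receptors under each. Slopes on Dbp, which runs opposite to Bmal1, were -0.269 for Rarb, 0.382 for Esrrg and -0.186 for Rora. With the replicate number as a block, the group comparison called 0 receptors and 0 probe sets as before, and the slope called 0 probe sets, with -0.870 for Rarb, 1.207 for Esrrg and -0.296 for Rora, and 3 of 39 receptors (7.69%) at an unadjusted p under 0.05, against 4.11% of all probe sets. Over all probe sets, no animal's deviation correlated best with that of its own number in both groups (0 of 5). The labels give the number no meaning, so it was not taken as a pairing. Single genes such as Bmal1 still ran alike by number in both groups.

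The count of receptor and target pairs called was 1; it was 0 on values with group means left in, 0 without the 2 animals farthest from the receptor median, and 0 to 1 with single animals left out. Without those 2 animals, signs turned for Nr1i2 and Cyp3a23-3a1 (-0.195), Nr1h3 and Abcg5 (0.077), Nr5a2 and Cyp8b1 (0.321), Thrb and Thrsp (0.438) and Nr4a1 and Egr1 (0.361). For Nr1h3 and Abcg5 r was 0.024 with group means left in and 0.130 after quantile normalization. Leaving out single animals gave -0.267 to 0.372 for Nr1i2 and Cyp3a23-3a1, -0.484 to 0.029 for Ppara and Cyp4a1, -0.385 to 0.413 for Nr1h3 and Abcg5, -0.316 to 0.326 for Nr5a2 and Cyp8b1, -0.179 to 0.338 for Thrb and Thrsp and -0.623 to 0.100 for Nr3c1 and Fkbp5. The 12 dim receptors have little signal over background, which limits what their values can show.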
